A study of Mus musculus with 23 samples.

Results

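The loading by L-BAIBA interaction after 2 weeks was examined in osteocyte-enriched cortical bone of the mouse tibia. It is the loading effect in mice given L-BAIBA (loaded minus nonloaded tibia) minus the same loading effect in mice given vehicle, computed for every gene on the log2 scale. A value below 0 means that loading raised a gene less, or lowered it more, with L-BAIBA than with vehicle, and a value above 0 means the reverse. The members were all 12 libraries of the 2-week experiment, of 23 libraries in the series, and the other 11 libraries came from mice loaded in a single bout.

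All mice were wild-type C57BL/6 males, 5 months old at selection. The vehicle groups drank regular water, and the L-BAIBA groups received L-BAIBA, the L-enantiomer of beta-aminoisobutyric acid, at 100 mg/kg/day in the drinking water. In every mouse the right tibia was loaded at 8.25 N in 3 bouts per week for 2 weeks, the left tibia served as the nonloaded limb, and RNA was taken 24 hours after the last bout. The 4 groups thus came from both limbs under vehicle and under L-BAIBA, with 3 libraries each. RNA of 2 mice, from tibiae of the same side, was pooled into each library, so that a p-value measures the spread between such pools. The nonloaded group is the contralateral limb of animals that were loaded on the other side, and no unloaded animals were compared here. All 3 L-BAIBA pools were sequenced from both limbs, whereas in the vehicle arm 2 pools were and vehicle loaded replicate 2 and vehicle nonloaded replicate 3 came from different mice.

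L-BAIBA is a small amino acid released by contracting muscle. Osteocytes, the cells embedded in the bone matrix, sense strain and respond with signals that include Wnt and bone morphogenetic protein (BMP) ligands and the Wnt antagonist sclerostin. The marrow had been flushed and surface cells digested away with collagenase and EDTA before RNA extraction, but a preparation of this kind can retain some marrow and surface cells.

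Library depth ranged from 6368289 to 18318951 counted reads, with both lowest totals in the L-BAIBA pool of replicate 1. The same pool lay farthest along the first principal component (35.7% of the variance), at 60.6 for its loaded and 72.8 for its nonloaded library. Osteocyte markers were present in every library, and 17 of 18 listed markers were measured. Their summed level was 8424, 8633 and 9087 CPM (counts scaled to library size) in vehicle nonloaded, 14092, 25775 and 8772 in vehicle loaded, 18374, 13007 and 13778 in L-BAIBA nonloaded and 19526, 6636 and 10676 in L-BAIBA loaded libraries. The vehicle nonloaded libraries lay close together, and the other groups spread widely and overlapped. Marrow markers moved the other way. The 15 erythroid markers analysed here summed to 9016, 9687 and 8315 CPM in vehicle nonloaded, 5996, 3891 and 7250 in vehicle loaded, 4326, 7606 and 7177 in L-BAIBA nonloaded and 3510, 9701 and 8695 in L-BAIBA loaded libraries. Vehicle loaded replicate 2 and L-BAIBA loaded replicate 1 were thus high in osteocyte markers and low in erythroid markers, and L-BAIBA loaded replicate 2 was the reverse. The part of these markers in the results below was not tested, and in bulk RNA fewer cells of a type and less RNA per cell cannot be told apart. Skeletal muscle markers, of which 19 of 30 were analysed here, summed to between 53.4 and 95.1 CPM in all 12 libraries.

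**Figure D1:**
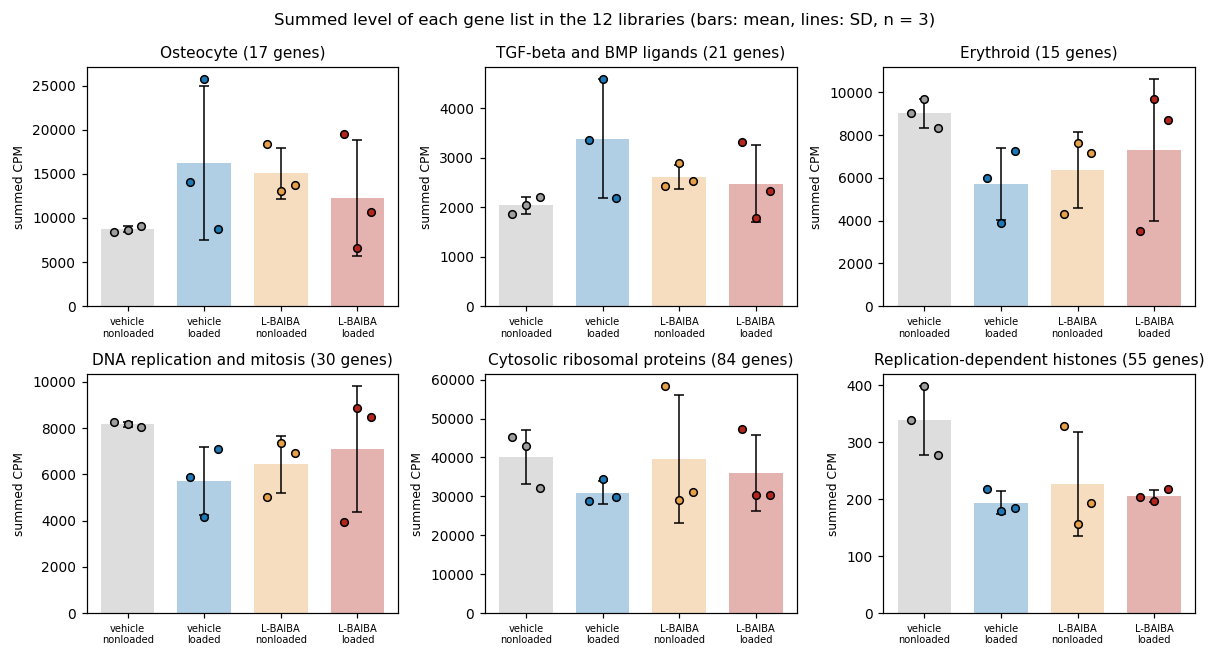
Summed level (CPM, vertical axes from 0) of 6 gene lists in each of the 12 libraries, with bars for group means and lines for SD, n = 3. The vehicle nonloaded libraries are lowest or near lowest for osteocyte markers and TGF-beta and BMP ligands and highest on average for the other 4 lists, and the L-BAIBA loaded points spread from 6636 to 19526 CPM for osteocyte markers.

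No gene passed the adjusted threshold for the interaction. Of 15576 genes tested with edgeR's quasi-likelihood F test, 0 had an adjusted p under 0.05, and the smallest adjusted p was 0.72. At an unadjusted p under 0.05 there were 1028 genes (6.6%), of which 644 lay below 0 (4.13%) and 384 above 0 (2.47%). DESeq2 gave 0 genes with a smallest adjusted p of 0.056 and 1231 genes at an unadjusted p under 0.05, and the edgeR likelihood ratio test gave 0 genes with a smallest adjusted p of 0.15 and 1131 unadjusted. With the pool of mice as a fixed block the counts were 0 adjusted (smallest 0.34) and 1834 unadjusted (11.8%), and with the pool as a random block in limma they were 0 adjusted (smallest 0.22) and 2501 unadjusted (16.1%). The median standard error of the interaction was 0.35, and it was 1.18 for genes with a mean under 1 CPM against 0.29 for genes between 10 and 100 CPM. Below, "at the unadjusted threshold" means an unadjusted p under 0.05 for the interaction, a threshold that none of the genes named passes after adjustment.

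The genes with the widest difference between arms were mostly ones with a value below 0. Among genes that reached an unadjusted p under 0.05 with an absolute log2 value over 1 (410, or 2.63%), 328 lay below 0 (2.11% of genes tested) and 82 lay above 0 (0.526%). Of the 328, 323 (98.5%) had a positive loading effect in vehicle and a negative one in L-BAIBA mice, a sign pattern that 28.1% of all genes showed. Their median loading effect was 0.91 in vehicle and -0.54 in L-BAIBA mice. The vehicle nonloaded mean was the lowest of the 4 group means in 283 of them (86.3%, against 31.6% of all genes). Of the 82 genes above 0, 78 (95.1%, against 27.6% of all genes) had a negative loading effect in vehicle and a positive one in L-BAIBA mice, with medians of -0.79 and 0.54. The vehicle nonloaded mean was the highest of the 4 in 69 of them (84.1%, against 31.8%). Choosing genes on the interaction partly fixes these sign patterns, so they describe the genes called and are not separate evidence.

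The 328 genes below 0 were also described by comparisons between pairs of groups. Among the 328 genes, loading in vehicle mice was positive at an unadjusted p under 0.05 in 191 (58.2%, against 6.16% of all genes), and loading in L-BAIBA mice was negative at that threshold in 64 (19.5%, against 1.03%). In the nonloaded limbs, L-BAIBA was above vehicle at that threshold in 231 (70.4%, against 5.37%). In the loaded limbs, L-BAIBA was below vehicle in 42 (12.8%, against 1.14%). These comparisons share their libraries with the interaction and are parts of it, so their shares cannot show which of them contributed to it. Within the pools that gave both limbs, every L-BAIBA pool was below every vehicle pool for 260 of the 328 (79.3%, against 13.6% of all genes), and for 150 the vehicle pools were all above 0 and the L-BAIBA pools all below 0 (5.23% of all genes). Of the 82 genes above 0, 75 had every L-BAIBA pool above every vehicle pool (91.5%, against 16.1%), and 43 had vehicle pools below 0 and L-BAIBA pools above 0 (4.71% of all genes). The genes were chosen on these same libraries. The pool counts are therefore partly fixed by that choice and are not separate evidence.

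The count of 410 genes depended on single libraries. It was 165 without vehicle loaded replicate 2 and 191 without L-BAIBA loaded replicate 2. It was 1336 without L-BAIBA loaded replicate 1, 763 without vehicle loaded replicate 3, 643 without vehicle nonloaded replicate 3 and 631 without L-BAIBA nonloaded replicate 2. List counts given below for fits without 1 library are to be read beside these shifts over all genes. Shares of all genes at the unadjusted threshold are not given for those fits, and the shares quoted from the main fit do not apply to them. With the pool as a fixed block 609 genes passed (3.91% of genes tested), of which 238 were among the 410 (58% of the 410 and 39.1% of the 609), and with the pool as a random block 811 passed (5.21%), of which 335 were among the 410 (81.7% and 41.3%).

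**Figure D2:**
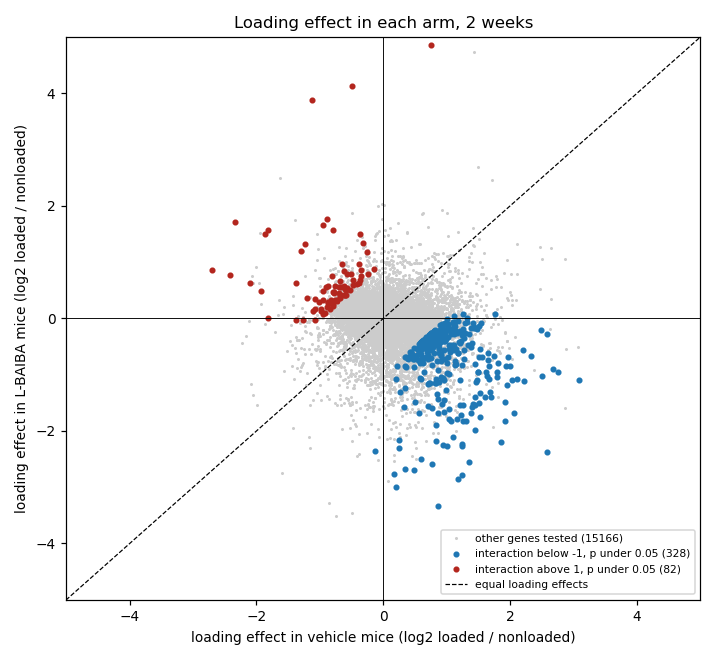
Loading effect (log2 loaded over nonloaded) in vehicle mice on the horizontal axis and in L-BAIBA mice on the vertical axis for the 15576 genes tested, with the 328 genes below -1 and the 82 genes above 1 at an unadjusted p under 0.05 in colour and a dashed line for equal effects. Nearly all of the 328 lie to the right of and below 0, and 2 genes lie outside the plotted range.

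Osteocyte genes lay mostly below 0. Of the 17 markers tested, 15 had a value below 0 and 2 above, 7 passed the unadjusted threshold below 0, where 4.13% of all genes did, and 0 passed above 0. Their median interaction was -1.12, against -0.01 for all genes, with a median loading effect of 0.75 in vehicle and -0.18 in L-BAIBA mice. The summed levels of the same markers are those given above for each library. The count of 7 was 2 without vehicle loaded replicate 2 and 12 without L-BAIBA loaded replicate 1, and the median was -0.68 and -1.57 on leaving out the same libraries.

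Phex, an endopeptidase that limits FGF23 and supports mineralization, had the smallest p of these markers. The gene lies on chromosome X at 157162075 to 157415286 (mm10). Its level was 459, 338 and 390 CPM in vehicle nonloaded, 695, 1404 and 469 in vehicle loaded, 884, 783 and 589 in L-BAIBA nonloaded and 670, 372 and 483 in L-BAIBA loaded libraries. All 3 vehicle loaded values were above all 3 vehicle nonloaded values, while the L-BAIBA groups overlapped. The interaction was -1.68 ± 0.49 (SE), with an unadjusted p of 0.0044, and it stayed under 0.05 on leaving out any 1 library. Within the pools that gave both limbs, Phex differed between limbs by 0.60 and 0.47 (log2) in vehicle and by -0.40, -1.07 and -0.29 in L-BAIBA mice, so that the pools of the 2 arms did not overlap.

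Mepe, a matrix phosphoglycoprotein of osteocytes, was at 2061, 2682 and 2589 CPM in vehicle nonloaded, 3115, 6364 and 2410 in vehicle loaded, 4957, 4072 and 4310 in L-BAIBA nonloaded and 4017, 1873 and 2883 in L-BAIBA loaded libraries. All L-BAIBA nonloaded values were above all L-BAIBA loaded and all vehicle nonloaded values. Its interaction was -1.30 ± 0.49, with a p of 0.02 that became 0.07 without vehicle loaded replicate 2. Tnfrsf11b encodes osteoprotegerin, the decoy receptor for RANKL that restrains osteoclast formation. Its interaction was -1.79 ± 0.65, with levels of 54.6 to 70.7 CPM in vehicle nonloaded and 61.3 to 245 CPM in vehicle loaded libraries, and its p of 0.017 passed 0.05 on leaving out 2 of the 12 libraries, up to 0.071 without vehicle loaded replicate 2. Ptprz1, a receptor tyrosine phosphatase, had an interaction of -1.19 ± 0.39, and the transcription factor Irx5 one of -1.12 ± 0.42. The p of Irx5, 0.019, passed 0.05 on leaving out 2 libraries, up to 0.053 without vehicle loaded replicate 2.

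Other well-known osteocyte genes did not pass. Sost, which encodes sclerostin, had an interaction of -0.82 ± 0.49 (unadjusted p = 0.11), and its groups overlapped, at 1588 to 2905 CPM in vehicle nonloaded, 2536 to 4636 in vehicle loaded, 2506 to 4216 in L-BAIBA nonloaded and 1654 to 3782 in L-BAIBA loaded libraries. Dmp1, a matrix protein needed for mineralization, had a value of -1.53 ± 1.02 (unadjusted p = 0.16). Its loaded libraries ranged from 1599 to 9280 CPM in vehicle and from 1228 to 7939 CPM in L-BAIBA mice, and with the pool as a fixed block its value was -0.76 with a p of 0.033. The phosphate-regulating hormone Fgf23 had a value of 0.35 ± 0.48 (unadjusted p = 0.48). Osteoblast and bone matrix genes as a list had a median of -0.11, near the -0.01 of all genes. At the unadjusted threshold 2 of 20 passed, both below 0, where 4.13% of all genes did. They were Bglap3 (-1.63 ± 0.53), of the osteocalcin gene cluster, and Bmp3, a BMP family member that restrains bone formation in mice (-0.87 ± 0.35). The Bglap genes are close copies, so that reads of Bglap3 are uncertain, and the p of Bmp3 passed 0.05 on leaving out 5 of the 12 libraries, up to 0.099 without vehicle loaded replicate 2.

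**Figure D3:**
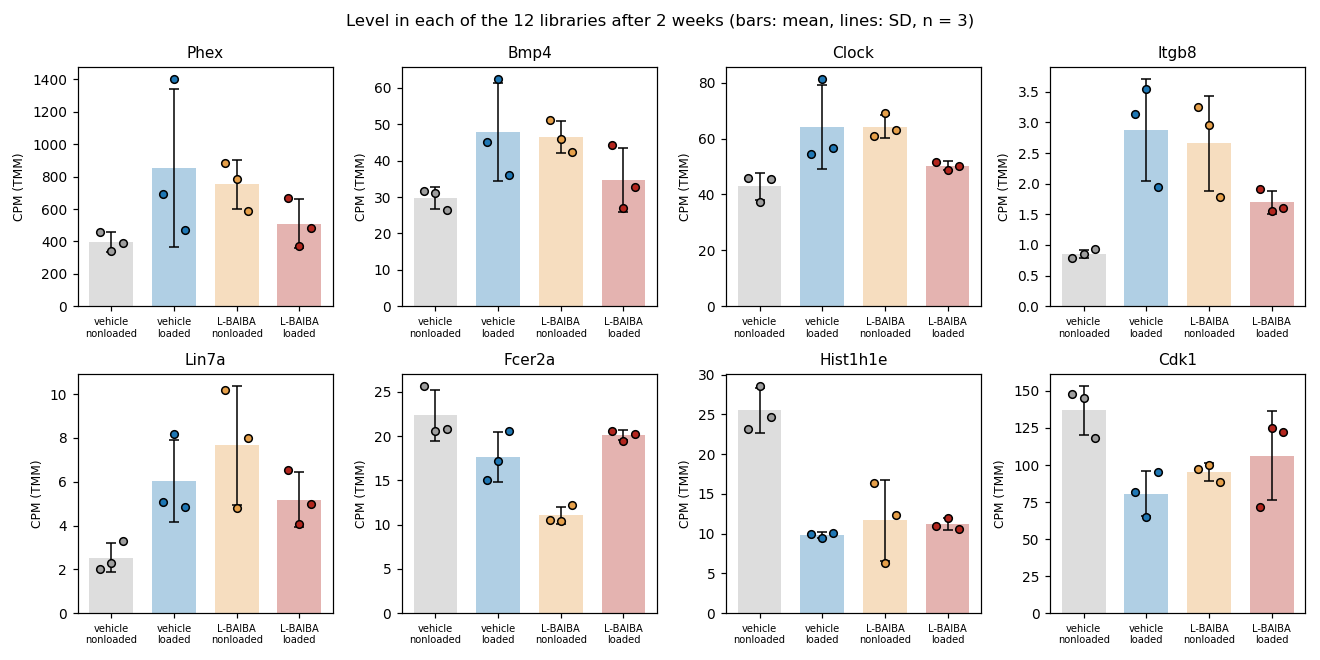
Level (CPM after TMM scaling, vertical axes from 0) of 8 genes in each library, with bars for group means and lines for SD, n = 3. Phex, Bmp4, Clock, Itgb8 and Lin7a have their lowest mean in the vehicle nonloaded group, whereas Hist1h1e, Cdk1 and Fcer2a have their highest mean there.

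TGF-beta and BMP ligands all had values below 0. TGF-beta and BMPs are secreted growth factors stored in bone matrix that act through receptor kinases and Smad transcription factors. The list of 21 genes tested also holds Ltbp1, a binding protein of latent TGF-beta that is not itself a ligand. Of the 21 genes, 21 lay below 0 (50.7% of all genes did), and 8 passed the unadjusted threshold below 0 (4.13% of all genes did). The median was -0.87, with loading effects of 0.70 in vehicle and -0.11 in L-BAIBA mice. Their summed level was 1855, 2053 and 2204 CPM in vehicle nonloaded, 3367, 4597 and 2188 in vehicle loaded, 2426, 2888 and 2525 in L-BAIBA nonloaded and 3317, 1783 and 2339 in L-BAIBA loaded libraries. All vehicle nonloaded libraries were below all L-BAIBA nonloaded libraries, and the other groups overlapped. The count of 8 was 3 without vehicle loaded replicate 2 and 14 without L-BAIBA loaded replicate 1.

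Bmp4, on chromosome 14 at 46383520 to 46390599, is an osteogenic ligand and had the smallest p among the ligands. It was at 31.7, 31.2 and 26.4 CPM in vehicle nonloaded, 45.2, 62.5 and 36.1 in vehicle loaded, 51.2, 46 and 42.3 in L-BAIBA nonloaded and 44.3, 27.1 and 32.9 in L-BAIBA loaded libraries. The vehicle nonloaded values were below all vehicle loaded and all L-BAIBA nonloaded values. The interaction was -1.11 ± 0.31 (unadjusted p = 0.0031), and its largest p on leaving out 1 library was 0.0098. Bmp7, another osteogenic ligand, had a value of -1.30 ± 0.44, Tgfb2 one of -1.26 ± 0.45 and Ltbp1, which holds latent TGF-beta in the matrix, one of -1.01 ± 0.37. The p of Ltbp1, 0.016, became 0.052 without vehicle loaded replicate 2. Bmp2 had a value of -1.68 ± 0.77 with a p of 0.049 that was 0.056 with the pool as a fixed block and above 0.05 on leaving out 8 of the 12 libraries, up to 0.2 without vehicle loaded replicate 2.

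Among receptors, Smads and antagonists, 6 of 30 passed below 0, where 4.13% of all genes did, and 0 above, with a median of -0.61. Without vehicle loaded replicate 2 there was 1 such gene, and without L-BAIBA loaded replicate 1 there were 17. The type I receptor Bmpr1a was at 37.7 to 47.5 CPM in vehicle nonloaded, 50.7 to 104 in vehicle loaded, 64.5 to 83.7 in L-BAIBA nonloaded and 44.4 to 74.5 in L-BAIBA loaded libraries, and its interaction was -1.03 ± 0.37. Its vehicle nonloaded values were below those of both groups that differ from it in a single factor. The type II receptor Bmpr2 had a value of -0.82 ± 0.31, the BMP target Id1 one of -1.64 ± 0.67 and the pseudoreceptor Bambi one of -0.78 ± 0.34. Each of these 3 lost the unadjusted threshold without vehicle loaded replicate 2, with p of 0.061, 0.11 and 0.11.

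The Wnt pathway, in which secreted ligands act through Frizzled receptors and LRP co-receptors, gave fewer genes at the threshold. Of 9 Wnt ligands tested, 1 passed below 0 (4.13% of all genes did), with a median of -0.74. This was Wnt5b, a ligand that mainly acts apart from beta-catenin (-1.01 ± 0.46, unadjusted p = 0.047), and its p was 0.12 with the pool as a fixed block. Its p passed 0.05 on leaving out 9 of the 12 libraries, up to 0.16 without vehicle loaded replicate 2. Wnt1, whose loss of function causes bone fragility, was at 11.3, 4.38 and 4.53 CPM in vehicle nonloaded, 37.3, 72.1 and 4.73 in vehicle loaded, 23.8, 12.5 and 10.7 in L-BAIBA nonloaded and 57.7, 3.98 and 7.86 in L-BAIBA loaded libraries. It was high in 2 vehicle loaded libraries and in L-BAIBA loaded replicate 1, the groups overlapped, and the interaction was -1.95 ± 1.32 (unadjusted p = 0.16). Wnt10b had a value of -1.84 ± 0.87 (unadjusted p = 0.055), and with the pool as a random block its p was 0.034.

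Of 33 Wnt receptors, antagonists and targets, 5 passed below 0, against 4.13% of all genes, and 0 above, with a median of -0.36. The count was 1 without L-BAIBA loaded replicate 2 and 12 without L-BAIBA loaded replicate 1. Dkk3, a secreted member of the Dickkopf family, was at 12.9 to 14.7 CPM in vehicle nonloaded, 16.3 to 26.2 in vehicle loaded, 20.4 to 21.2 in L-BAIBA nonloaded and 8.59 to 23.4 in L-BAIBA loaded libraries, with an interaction of -1.18 ± 0.41. The vehicle groups did not overlap. The receptors Fzd2 (-1.36 ± 0.51) and Fzd7 (-0.92 ± 0.39) and the R-spondin receptor Lgr6 (-1.02 ± 0.43) also passed. Fzd2 lost the threshold without 2 of the 12 libraries (largest p 0.057, without L-BAIBA loaded replicate 3), Fzd7 without 7 (0.084, L-BAIBA nonloaded replicate 3) and Lgr6 without 7 (0.1, L-BAIBA nonloaded replicate 2), and the p of Lgr6 was 0.098 with the fixed block. Dkk1, a secreted antagonist of the LRP co-receptors, had a value of -0.76 ± 0.36 with a p of 0.056, and with the fixed block its p was 0.01.

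Immediate early genes, which are transcribed within minutes of many stimuli, were measured 24 hours after the last bout. The bone had also been digested in collagenase and EDTA after dissection, and the part of this step in their levels was not tested. Of 23, 22 lay below 0 (50.7% of all genes did), 5 passed the unadjusted threshold below 0 (4.13% of all genes), and the median was -0.76, with loading effects of 0.65 in vehicle and 0.01 in L-BAIBA mice. The count was 0 without vehicle loaded replicate 2 and 15 without L-BAIBA loaded replicate 1. It was 3 with the pool as a fixed block, where 6.05% of all genes passed below 0. The transcription factor Klf4 was at 446, 449 and 459 CPM in vehicle nonloaded, 827, 1029 and 499 in vehicle loaded, 776, 811 and 652 in L-BAIBA nonloaded and 900, 441 and 589 in L-BAIBA loaded libraries. The vehicle nonloaded values were close together and below those of both vehicle loaded and L-BAIBA nonloaded libraries, and the interaction was -1.01 ± 0.39. Fos had a value of -0.80 ± 0.33, Atf3 one of -1.08 ± 0.46 and Egr3 one of -1.31 ± 0.58, while Egr1 did not pass (-0.84 ± 0.49, unadjusted p = 0.11). Klf4 lost the threshold on leaving out 3 libraries, Fos and Egr3 on leaving out 7 and Atf3 on leaving out 8, with largest p of 0.068, 0.082, 0.14 and 0.11, and the fixed block gave 0.057 for Fos and 0.078 for Egr3.

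Circadian clock genes showed a value below 0 in each of 19 genes tested (50.7% of all genes did), with a median of -0.70 and 2 genes at the unadjusted threshold, both below 0 (4.13% of all genes). Clock, which encodes the partner of BMAL1 in the core oscillator, was at 45.8, 37.3 and 45.5 CPM in vehicle nonloaded, 54.5, 81.4 and 56.7 in vehicle loaded, 60.9, 69.1 and 63.0 in L-BAIBA nonloaded and 51.8, 48.7 and 50.3 in L-BAIBA loaded libraries. The 3 vehicle nonloaded values were the lowest of the 12, and every L-BAIBA loaded value was below every value of the vehicle loaded and L-BAIBA nonloaded groups. Its interaction was -0.94 ± 0.24 (unadjusted p = 0.0015), with 0.25 and 0.60 within the vehicle pools and -0.23, -0.50 and -0.32 within the L-BAIBA pools. Rora, a nuclear receptor that activates clock genes, had a value of -1.36 ± 0.45. Both stayed under 0.05 on leaving out any 1 library, and the list count reached 12 without L-BAIBA loaded replicate 1.

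Channels that sense stretch or carry calcium and gap junction genes gave 3 of 18 at the threshold below 0, where 4.13% of all genes passed, and 0 above, with a median of -0.39. The count of 3 was 1 without vehicle loaded replicate 2 and 7 without L-BAIBA loaded replicate 1. Cacna2d1, an auxiliary subunit of voltage-gated calcium channels, was at 31.3 to 43.5 CPM in vehicle nonloaded, 52.2 to 113 in vehicle loaded, 50.4 to 74.5 in L-BAIBA nonloaded and 38.8 to 65.2 in L-BAIBA loaded libraries. Its vehicle groups did not overlap, and the interaction was -1.37 ± 0.40 (unadjusted p = 0.0043). The cation channel Trpc1 had a value of -1.64 ± 0.69, and Pkd2, which encodes polycystin-2, one of -0.59 ± 0.25. Trpc1 lost the threshold on leaving out 6 libraries and Pkd2 on leaving out 7, with largest p of 0.078 and 0.1, and the p of Pkd2 was 0.099 with the fixed block.

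Genes first known from neurons formed a further group below 0. Of 36 axon guidance genes, 33 lay below 0 (50.7% of all genes did), 5 passed the unadjusted threshold below 0 (4.13% of all genes) and the median was -0.44. The count of 5 was 3 without vehicle loaded replicate 2 and 15 without L-BAIBA loaded replicate 1. Sema3e, a secreted semaphorin, was at 6.73 to 10.8 CPM in vehicle nonloaded, 11.9 to 32.3 in vehicle loaded, 15.5 to 22.2 in L-BAIBA nonloaded and 7.97 to 21.4 in L-BAIBA loaded libraries (-1.56 ± 0.54). The vehicle nonloaded range was below those of vehicle loaded and L-BAIBA nonloaded. Sema3d had a value of -1.56 ± 0.53, the transmembrane semaphorin Sema5a one of -1.16 ± 0.40 and Sema3a, which in mice favours bone formation and restrains osteoclasts, one of -0.70 ± 0.32. The p of Sema3a, 0.046, was 0.054 with the fixed block and passed 0.05 on leaving out 7 libraries, up to 0.13 without vehicle loaded replicate 3.

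Synaptic and neuronal genes gave 7 of 27 at the threshold below 0, where 4.13% of all genes passed, and 0 above, with a median of -0.71, and with the pool as a fixed block the count was 12, where 6.05% of all genes passed below 0 in that fit. Their within-pool differences were below in every L-BAIBA pool compared with every vehicle pool for 17 of 27, where 13.6% of all genes showed this. Genes that the study named on these samples are among the 7 (Lin7a, Gabrb2, Mdga2, Lhfpl4 and Map2), so the count is not independent evidence of direction. Lin7a, a scaffold protein of cell junctions, was at 2.02, 2.29 and 3.30 CPM in vehicle nonloaded, 5.07, 8.19 and 4.86 in vehicle loaded, 10.2, 4.80 and 8 in L-BAIBA nonloaded and 6.54, 4.05 and 4.96 in L-BAIBA loaded libraries. The vehicle nonloaded values were the lowest of the 12, and the interaction was -1.84 ± 0.48 (unadjusted p = 0.0021). The GABA receptor subunit Gabrb2 (-2.94 ± 0.88), the adhesion molecule Mdga2 (-2.95 ± 0.96), Lhfpl4, which helps place GABA receptors (-3.08 ± 1.03), and the sodium channel Scn8a of the voltage-gated list (-2.74 ± 0.85) had values of larger size at low counts. Their levels reached 5.62, 6.11, 3.70 and 4.29 CPM at most, each in an L-BAIBA nonloaded library. Among 32 genes of the voltage-gated list 4 passed below 0 (4.13% of all genes did) and 1 above (2.47% did), with a median of -0.50. The gene above 0 was Kcnn4, a calcium-activated potassium channel (1.08 ± 0.42). Its p of 0.024 passed 0.05 on leaving out 5 libraries. In this list 1 gene passed below 0 without vehicle loaded replicate 2.

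Of all genes tested, the smallest p below 0 belonged to Itgb8, an integrin subunit whose heterodimer activates latent TGF-beta, on chromosome 12 at 119162803 to 119238276. Its level was 0.794, 0.849 and 0.927 CPM in vehicle nonloaded, 3.14, 3.55 and 1.95 in vehicle loaded, 3.25, 2.95 and 1.78 in L-BAIBA nonloaded and 1.91, 1.56 and 1.61 in L-BAIBA loaded libraries. The vehicle nonloaded libraries stood below all others, and the L-BAIBA loaded libraries stood below the vehicle loaded ones. The interaction was -2.41 ± 0.53 (unadjusted p = 0.00058), with a largest p of 0.0026 on leaving out 1 library, and the limbs differed by 1.80 and 1.07 within vehicle pools against -0.72, -0.86 and -0.13 within L-BAIBA pools. Of 33 integrin and matrix protease genes, 4 passed below 0, where 4.13% of all genes did, with a median of -0.23. The count of 4 was 2 without vehicle loaded replicate 2 and 9 without L-BAIBA loaded replicate 1. Itga2, a collagen-binding subunit, had a value of -0.93 ± 0.33, and Itgav a value of -0.67 ± 0.31 that missed the threshold with the fixed block (unadjusted p = 0.089) and on leaving out 7 libraries, up to 0.13 without L-BAIBA nonloaded replicate 2.

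The other leading genes below 0 had the same shape. The kinase Hunk was at 6.48, 5.62 and 8.24 CPM in vehicle nonloaded, 12.1, 16.4 and 9.40 in vehicle loaded, 12.6, 12.4 and 9.33 in L-BAIBA nonloaded and 7.33, 5.91 and 8.89 in L-BAIBA loaded libraries. Both the vehicle nonloaded and the L-BAIBA loaded values were below all values of the other groups, and the interaction was -1.54 ± 0.36 (unadjusted p = 0.00089). Mef2c, a transcription factor that drives a bone enhancer of Sost, was at 301 to 374 CPM in vehicle nonloaded, 414 to 636 in vehicle loaded, 471 to 577 in L-BAIBA nonloaded and 334 to 463 in L-BAIBA loaded libraries (-1.03 ± 0.28, unadjusted p = 0.0029). Here too the vehicle nonloaded values were below those of vehicle loaded and L-BAIBA nonloaded libraries. The phagocytosis receptor Megf10 (-1.23 ± 0.31), the kinesin adaptor Sybu (-1.23 ± 0.31), Nbeal1 (-1.12 ± 0.29), the queuine tRNA-ribosyltransferase subunit Qtrtd1 (-1.07 ± 0.27), Dsel, an enzyme of dermatan sulfate synthesis (-1.19 ± 0.32), and the transporter Abca5 (-1.09 ± 0.30) completed the 10 smallest p below 0 among genes with an absolute log2 value over 1 and a mean of at least 1 CPM. For each of these 10 genes every L-BAIBA pool was below every vehicle pool, and p stayed under 0.05 on leaving out any 1 library. Such pool separation held for 13.6% of all genes and 79.3% of the 328. The 10 were chosen for the smallest p on these same libraries, so both traits are partly fixed by that choice.

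Of 18 periosteum, tendon and joint surface genes 2 passed below 0 (4.13% of all genes did), namely the secreted protein Pi15 (-1.29 ± 0.37) and the tendon marker Tnmd (-1.58 ± 0.59), the latter with a p of 0.14 under the fixed block and of 0.072 without vehicle loaded replicate 2. Of 13 pericyte and smooth muscle genes all 13 lay below 0 (50.7% of all genes did) and 1 passed (4.13% did). Their median of -0.60 was -0.04 without L-BAIBA nonloaded replicate 1. Of 19 load-responsive genes from other loading studies 1 passed below 0 (4.13% of all genes did). It was the secreted factor Ptn (-2.03 ± 0.74), with a p of 0.063 without vehicle loaded replicate 2. The median of this list was -0.74, and it was -0.25 without vehicle loaded replicate 2. Without L-BAIBA loaded replicate 1 the median was -1.43 and 13 of the 19 passed. In that fit the count over all genes, with an absolute log2 value over 1, was 1336 against 410. Of 15 YAP/TAZ targets 0 passed, with a median of -0.57 (limma with the random block gave 3 below 0, where 9.03% of all genes passed below 0).

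**Figure D4:**
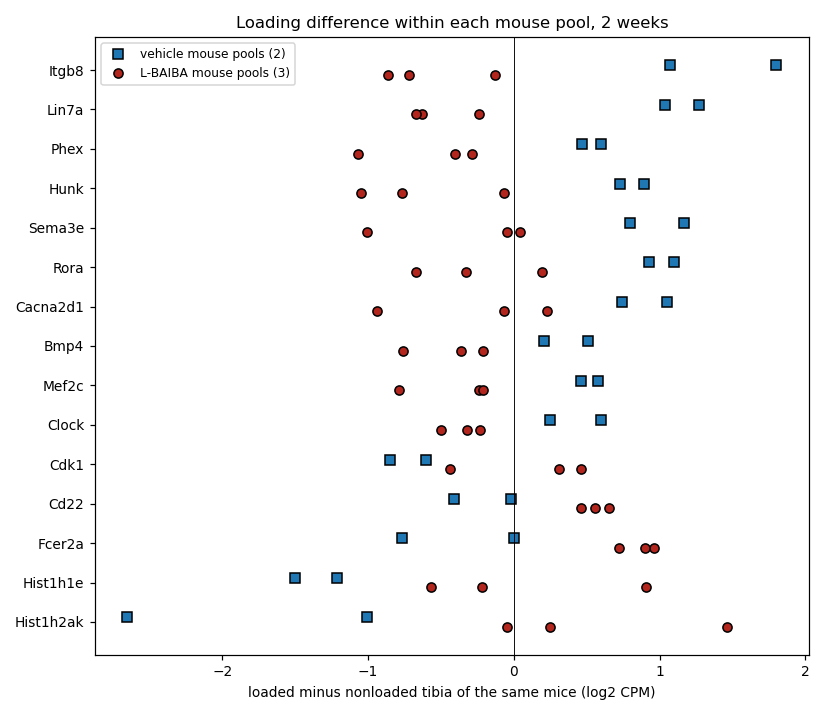
Difference between the loaded and the nonloaded tibia of the same mice (log2 CPM, horizontal axis) for 15 genes, with squares for the 2 vehicle pools and circles for the 3 L-BAIBA pools that gave both limbs. For Phex the squares lie at 0.60 and 0.47 and the circles between -1.07 and -0.29, and for Fcer2a the squares lie at or below 0 and the circles between 0.72 and 0.96.

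Above 0, the smallest p of all genes was that of Fcer2a, the low-affinity IgE receptor CD23 of mature B cells, on chromosome 8 at 3681737 to 3694174. Its level was 25.7, 20.6 and 20.8 CPM in vehicle nonloaded, 15, 17.2 and 20.6 in vehicle loaded, 10.5, 10.4 and 12.2 in L-BAIBA nonloaded and 20.6, 19.5 and 20.2 in L-BAIBA loaded libraries. The L-BAIBA nonloaded libraries stood below all others. The interaction was 1.21 ± 0.24 (unadjusted p = 0.00023, adjusted p = 0.72), with a largest p of 0.0011 on leaving out 1 library. Cd22, an inhibitory receptor of B cells, was at 46.8 to 53.7 CPM in vehicle nonloaded, 38.0 to 46.2 in vehicle loaded, 28.0 to 31.7 in L-BAIBA nonloaded and 38.4 to 46.8 in L-BAIBA loaded libraries (0.82 ± 0.20, unadjusted p = 0.0013), again with the L-BAIBA nonloaded group lowest. Of 18 B cell markers 4 passed above 0 (2.47% of all genes did), with a median of 0.53, among them Cd22 and Ms4a1 (0.70 ± 0.28), which encodes CD20, while Fcer2a was not on that list. Without vehicle nonloaded replicate 1 the count was 1, and Ms4a1 had a p of 0.083. The marker Ighm was not analysed here.

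Erythroid and neutrophil markers lay above 0 as well. All 15 erythroid markers had values above 0 (49.3% of all genes did), 3 passed the unadjusted threshold (2.47% of all genes did above 0), and the median was 0.85, with loading effects of -0.68 in vehicle and 0.18 in L-BAIBA mice. With the pool as a fixed block 9 passed, where 5.73% of all genes passed above 0. Without L-BAIBA loaded replicate 1 all 15 passed, and without vehicle loaded replicate 1 the count was 0. Klf1, the transcription factor of red cell development, was at 114 to 200 CPM in vehicle nonloaded, 45.7 to 112 in vehicle loaded, 52.1 to 99.1 in L-BAIBA nonloaded and 48.8 to 138 in L-BAIBA loaded libraries (1.29 ± 0.56). The vehicle nonloaded libraries were above all vehicle loaded and all L-BAIBA nonloaded ones. Rhd, a blood group protein, had a value of 1.10 ± 0.43 and Tspo2 one of 0.82 ± 0.35, and these 3 genes lost the threshold on leaving out 7, 7 and 8 of the libraries (largest p 0.11, 0.066 and 0.12). Of 19 neutrophil markers 5 passed above 0, against 2.47% of all genes, with a median of 0.57, among them the granule proteases Elane (0.67 ± 0.26) and Prtn3 (0.69 ± 0.28) and the peroxidase Mpo (0.71 ± 0.30). Without vehicle loaded replicate 2 the count was 0, with p of 0.078 for Mpo, and Elane and Prtn3 had largest p of 0.06 and 0.073 without L-BAIBA nonloaded replicate 2 and vehicle nonloaded replicate 2. Of 18 T and NK cell markers 3 passed above 0, against the same 2.47% (median 0.58), and without L-BAIBA loaded replicate 3 the count was 0. Of 17 macrophage markers 0 passed, in edgeR and in both block fits, and the median was 0.00.

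DNA replication and mitosis genes gave the largest share at the threshold among the lists above 0 with at least 20 genes, at 11 of 30 where 2.47% of all genes passed, all of the 30 lying above 0. The median was 0.70, with loading effects of -0.52 in vehicle and 0.13 in L-BAIBA mice. Their summed level was 8281, 8160 and 8047 CPM in vehicle nonloaded, 5905, 4168 and 7086 in vehicle loaded, 5031, 7337 and 6930 in L-BAIBA nonloaded and 3953, 8862 and 8488 in L-BAIBA loaded libraries. Here vehicle nonloaded libraries were close together and above every vehicle loaded and L-BAIBA nonloaded library, while the L-BAIBA loaded group held both the highest and the lowest sum. The count was 4 without L-BAIBA loaded replicate 2 and 29 without L-BAIBA loaded replicate 1. The erythroid marker sums given above follow the same order of libraries at their extremes, with L-BAIBA loaded replicates 1 and 2 at the lowest and highest values.

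Cdk1, the kinase that drives entry into mitosis, was at 148, 145 and 118 CPM in vehicle nonloaded, 81.6, 64.9 and 95.6 in vehicle loaded, 97.5, 100 and 88.4 in L-BAIBA nonloaded and 71.7, 125 and 122 in L-BAIBA loaded libraries. Only the L-BAIBA loaded group overlapped with vehicle nonloaded. The interaction was 0.92 ± 0.30 (unadjusted p = 0.009), and it stayed under 0.05 on leaving out any 1 library. Birc5, which encodes survivin, had a value of 0.86 ± 0.30, the ubiquitin-conjugating enzyme Ube2c one of 0.88 ± 0.32 and thymidylate synthase Tyms one of 0.83 ± 0.30. The p of Ube2c, 0.017, became 0.051 without vehicle nonloaded replicate 2.

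Replication-dependent histone genes, which are transcribed in S phase and mostly lack poly(A) tails, had a median of 0.91 over 55 genes. Of these 50 lay above 0, 7 passed above 0 (2.47% of all genes did) and 0 below. The median loading effect was -0.96 in vehicle and -0.11 in L-BAIBA mice. The study listed histone genes as lower than in vehicle nonloaded tibiae on these samples, among them Hist1h2ak, Hist1h1e, Hist1h4j and Hist1h2bj. The histone count is therefore not independent evidence of direction. Their sum was 338, 399 and 278 CPM in vehicle nonloaded, 218, 180 and 184 in vehicle loaded, 329, 157 and 193 in L-BAIBA nonloaded and 204, 197 and 217 in L-BAIBA loaded libraries. The vehicle groups did not overlap, and the L-BAIBA nonloaded group rested on 1 high library, the less deeply sequenced replicate 1. With the pool as a fixed block 15 passed, where 5.73% of all genes passed above 0. As a random block 27 passed, where 7.02% of all genes did. The count was 28 and the median 1.48 without L-BAIBA nonloaded replicate 1, and the count was 4 without vehicle nonloaded replicate 2. The libraries were made from poly(A) RNA and near-identical histone copies share reads, so that counts of single histone genes are uncertain.

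The 100 bases before the start of 4 histone genes that the results turn on are shown with the matches that a search for TATAAA and CCAAT found in them. Sequences are from RefSeq on GRCm38.p6, read 5′ to 3′ on the strand of the gene, and capitals mark TATAAA or CCAAT on either strand.
Hist1h2ak (chr13:21753913-21754012, minus strand): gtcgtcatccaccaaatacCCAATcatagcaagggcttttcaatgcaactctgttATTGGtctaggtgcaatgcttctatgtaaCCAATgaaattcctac
Hist1h1e (chr13:23622559-23622658, minus strand): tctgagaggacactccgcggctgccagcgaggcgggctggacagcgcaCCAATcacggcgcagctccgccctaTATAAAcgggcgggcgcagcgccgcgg
Hist1h4j (chr13:21734934-21735033, plus strand): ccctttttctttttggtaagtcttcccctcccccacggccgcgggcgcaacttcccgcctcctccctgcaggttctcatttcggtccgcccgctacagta
Hist1h2bj (chr13:22043098-22043197, plus strand): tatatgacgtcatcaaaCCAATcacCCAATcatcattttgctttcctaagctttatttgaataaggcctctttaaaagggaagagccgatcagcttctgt
Of the 55 histone genes tested, 49 matched a promoter in the table. Among the 49, 38 held CCAAT in this window (77.6%, against 19.6% of 27021 promoters) and 17 held TATAAA (34.7%, against 5.95%). The linker histone Hist1h1e held TATAAA at -27 from its start, and Hist1h4j held neither of these letter strings in the window.

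Hist1h1e, which encodes a linker histone, was at 23.2, 28.6 and 24.7 CPM in vehicle nonloaded, 9.89, 9.39 and 10.1 in vehicle loaded, 16.4, 6.33 and 12.3 in L-BAIBA nonloaded and 11, 12 and 10.6 in L-BAIBA loaded libraries. The vehicle nonloaded libraries stood above all others, and the 2 L-BAIBA groups overlapped. The interaction was 1.35 ± 0.38 (unadjusted p = 0.0032). Hist1h2ak, a core H2A gene, was at 4.77, 9.34 and 6.39 CPM in vehicle nonloaded libraries and between 0.764 and 3.19 CPM in the other 9, with an interaction of 2.43 ± 0.62 (unadjusted p = 0.0018). Hist1h4j (3.36 ± 1.02) and Hist1h2bj (1.57 ± 0.51), of the H4 and H2B families, passed at levels of at most 4.90 and 7.25 CPM.

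Genes of protein synthesis and respiration had small values above 0 whose calls turned on the pool. Of 84 cytosolic ribosomal protein genes 78 lay above 0, with a median of 0.23 and 0 at the unadjusted threshold in edgeR (1 with the random block). With the pool as a fixed block 57 passed above 0 and 0 below, where 5.73% of all genes passed above 0 in that fit, and the median was 0.49. Every L-BAIBA pool was above every vehicle pool for 73 of the 84, against 16.1% of all genes. The median was -0.04 without L-BAIBA loaded replicate 1 and 0.66 without L-BAIBA nonloaded replicate 1. The summed level was 45338, 42852 and 32118 CPM in vehicle nonloaded, 28867, 34356 and 29726 in vehicle loaded, 58442, 29056 and 31221 in L-BAIBA nonloaded and 47319, 30480 and 30477 in L-BAIBA loaded libraries. Both libraries of the first L-BAIBA pool were thus the highest of the 12, and the spread between pools was larger than the differences between groups.

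Respiratory chain genes gave 1 of 76 at the threshold above 0, where 2.47% of all genes passed, and 35 with the fixed block, where 5.73% did. Their median was 0.27, and it ranged from 0.11 without L-BAIBA nonloaded replicate 2 to 0.50 without L-BAIBA nonloaded replicate 1, where 19 passed, while 0 passed without vehicle loaded replicate 1. Proteasome genes gave 2 of 39 above 0 (11 with the fixed block), against the same 2.47% and 5.73% of all genes. Their median was 0.24, and 0 passed without vehicle loaded replicate 1 and 8 without L-BAIBA nonloaded replicate 1. Mitochondrial ribosomal protein genes gave 7 of 77 above 0 (17 with the fixed block), against the same shares of all genes, with a median of 0.33. The largest size among those of its 4 smallest p was at Mrps25, a small-subunit protein, which was at 21.6 to 26.7 CPM in vehicle nonloaded, 15.3 to 20.1 in vehicle loaded, 17.2 to 19.9 in L-BAIBA nonloaded and 18 to 26 in L-BAIBA loaded libraries (0.73 ± 0.25). The vehicle groups did not overlap. The mitochondrial ribosomal count was 1 without vehicle nonloaded replicate 2 and 19 without L-BAIBA nonloaded replicate 1.

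Wide values above 0 at high levels were those of Rn45s, the 45S ribosomal RNA precursor, and Lars2, which encodes mitochondrial leucyl-tRNA synthetase. Rn45s was at 7375, 41585 and 35254 CPM in vehicle nonloaded, 5788, 3732 and 3426 in vehicle loaded, 2816, 3103 and 14184 in L-BAIBA nonloaded and 17142, 15613 and 3636 in L-BAIBA loaded libraries. Its libraries spread widely within every group other than vehicle loaded, and it is not a poly(A) transcript. The interaction was 3.56 ± 1.05 (unadjusted p = 0.0048), and the pools of the 2 arms overlapped. Lars2 followed the same libraries, at 423, 1038 and 677 CPM in vehicle nonloaded and 171, 201 and 127 in vehicle loaded libraries. It was at 102, 127 and 445 CPM in L-BAIBA nonloaded and 564, 359 and 129 in L-BAIBA loaded libraries. Its value was 2.74 ± 0.81, and its pools of the 2 arms overlapped as well. Other leading genes above 0 were the immune GTPase Gimap3 (1.03 ± 0.28), Bex4 (1.45 ± 0.40), the membrane protein Popdc2 (1.32 ± 0.37) and the mitochondrial nucleotidase Nt5m (1.11 ± 0.32).

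Cartilage genes had a high median on few libraries. Of 22 tested, 19 lay above 0 and 3 passed above 0 (2.47% of all genes did), with a median of 0.85 that was 0.23 without vehicle nonloaded replicate 2 and 1.62 without vehicle loaded replicate 3. The hypertrophic collagen Col10a1 was at 0.367, 46 and 23.7 CPM in vehicle nonloaded, 0.362, 1.56 and 12.1 in vehicle loaded, 0.296, 3.17 and 4.55 in L-BAIBA nonloaded and 3.19, 10.5 and 13.3 in L-BAIBA loaded libraries. It was near 0 in a single vehicle nonloaded library and high in the others, and its interaction of 4.05 ± 1.74 had a p of 0.12 without vehicle nonloaded replicate 2. Col9a2 (3.38 ± 1.57) and Chadl (2.5 ± 1.12) likewise lost the threshold there, with p of 0.25 and 0.2, and the p of Chadl was 0.054 with the fixed block. The study named all 3 of these genes on the same samples. With the pool as a fixed block 5 cartilage genes passed above 0 (5.73% of all genes did), with a p of 3.4e-05 for Col10a1. With the pool as a random block 0 passed, where 7.02% of all genes passed above 0. The random-block p was 0.11 for Col10a1, 0.089 for Col9a2 and 0.16 for Chadl. The vehicle pool that gave vehicle nonloaded replicate 2 also gave vehicle loaded replicate 3, the highest of the vehicle loaded libraries for Col10a1.

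The lists of BAIBA, valine and thymine catabolism and of fatty acid oxidation had medians near 0. BAIBA is formed in the breakdown of valine and thymine. Of 22 genes of BAIBA, valine and thymine catabolism 1 passed above 0 (2.47% of all genes did) and 0 below, with a median of -0.10. The gene was Upb1, the beta-ureidopropionase that releases BAIBA from its thymine-derived precursor (1.24 ± 0.57, unadjusted p = 0.048). Its p was 0.075 with the fixed block and passed 0.05 on leaving out 9 libraries, up to 0.14 without vehicle nonloaded replicate 1. Of 21 fatty acid oxidation genes 0 passed in edgeR, with a median of -0.02 (fixed block, 1 above and 1 below), and of 20 prostaglandin and nitric oxide genes 0 passed in edgeR or with the fixed block (random block, 1 below), with a median of -0.00. A list of fibrillar and network collagens gave 0 of 23 (fixed block, 1 below), and endothelial markers 0 of 19 (fixed block, 1 below). Antioxidant and Nrf2 genes had a median of 0.29, with 17 of 22 above 0. Of the 22, 1 passed above 0 in edgeR (2.47% of all genes did) and 0 below. With the fixed block 7 passed above 0, where 5.73% of all genes did. Without vehicle loaded replicate 1 the edgeR count was 0.

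Of the 37 genes that the study names for 2 weeks, 13 passed the unadjusted threshold below 0 (4.13% of all genes did). Another 4 passed above 0 (2.47% of all genes did), and the median was -1.59. The 37 genes were chosen on these samples, so these counts are not independent evidence of their direction. Phex, Tnfrsf11b, Bmp2, Trpc1 and Pi15, counted in the lists above, are among the 37. The count below 0 was 8 without vehicle loaded replicate 2 and 23 without L-BAIBA loaded replicate 1. One of them, the bradykinin receptor Bdkrb2, was at most 0.367 CPM in vehicle nonloaded, 0.389 to 2.41 in vehicle loaded, 0.888 at most in L-BAIBA nonloaded and 0.187 to 0.638 in L-BAIBA loaded libraries, and its interaction of -2.81 ± 1.33 had a p of 0.054. At such levels the standard error is wide.

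The same contrast could be set beside that of mice given L-BAIBA for 5 days and loaded in a single bout, with 3 libraries in 3 groups and 2 in the L-BAIBA nonloaded group, at 17811949 to 37562527 counts per library. There 0 of 15500 genes passed the adjusted threshold (smallest adjusted p 1), and 312 had an unadjusted p under 0.05 (2.01%), of which 204 also had an absolute log2 value over 1 (1.32%). DESeq2 gave 0 and 369. Of the 328 genes below 0 at 2 weeks, 314 were tested, 288 had a value below 0 in the single bout (91.7%, against 57.6% of all genes), and 16 passed an unadjusted p of 0.05 in that direction (5.1%, against 1.52%). Their median single-bout value was -0.60. Of the 82 genes above 0 at 2 weeks, 80 were tested, 31 had a value above 0 (38.8%, against 42.4% of all genes) and 0 passed in that direction, against 0.49% of all genes. The mice, libraries and controls of the 2 experiments are separate. Genes measured in the same libraries can vary together, so these counts of genes are not counts of independent observations.

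Osteocyte markers lay below 0 in both experiments, with a single-bout median of -0.72 and 15 of 17 below 0. TGF-beta and BMP ligands had a single-bout median of -0.32. Among the lists above 0, erythroid markers had a single-bout median of -0.34 with 0 of 15 above 0 (42.4% of all genes were), a sign opposite to that at 2 weeks. DNA replication and mitosis genes had a single-bout median of -0.06, near the -0.04 of all genes. Of these 30 genes 28 lay below 0 (57.6% of all genes did). In both lists 0 genes passed the unadjusted threshold in the single bout. Lists below 0 at 2 weeks that did not keep this sign included integrins and matrix proteases (single-bout median 0.20, with 22 of 33 above 0). Load-responsive genes (0.11), periosteum, tendon and joint surface genes (0.13) and pericyte and smooth muscle genes (0.11, with 10 of 13 above 0) did not either. The same held for fibrillar and network collagens (0.28, with 19 of 23 above 0) and bone resorption and osteoclast genes (0.22, with 14 of 19). It also held for Notch (0.08, with 9 of 15), osteoblast and bone matrix (0.17, with 12 of 20) and adipocyte genes (0.17, with 13 of 19). Axon guidance genes had a single-bout median of -0.00, with 18 of 36 below 0, and Wnt receptors, antagonists and targets one of 0.01. Replication-dependent histones kept a median above 0, at 0.45, with 48 of 51 above 0. Neutrophil (0.48, with 16 of 19 above 0), B cell (0.30, with 14 of 18), T and NK cell (0.28, with 16 of 18) and cartilage genes (0.72, with 16 of 22) also had single-bout medians above 0, as did cytosolic ribosomal protein genes (0.11, with 77 of 84). Phex had a single-bout value of -0.83 ± 0.70 and Bmp4 one of -0.61 ± 0.49, neither past the unadjusted threshold. In the test of the difference between experiments, 0 of 15188 genes passed the adjusted threshold (smallest adjusted p 1) and 142 had an unadjusted p under 0.05 (0.935%), 78 of them with an absolute log2 value over 1 (0.514%), and DESeq2 gave 0 and 194. Itgb8 was one of them. Its single-bout value was 0.04 ± 0.56, with group means of 1.40 to 1.70 CPM, and the difference was -2.51 with an unadjusted p of 0.0032.

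**Figure D5:**
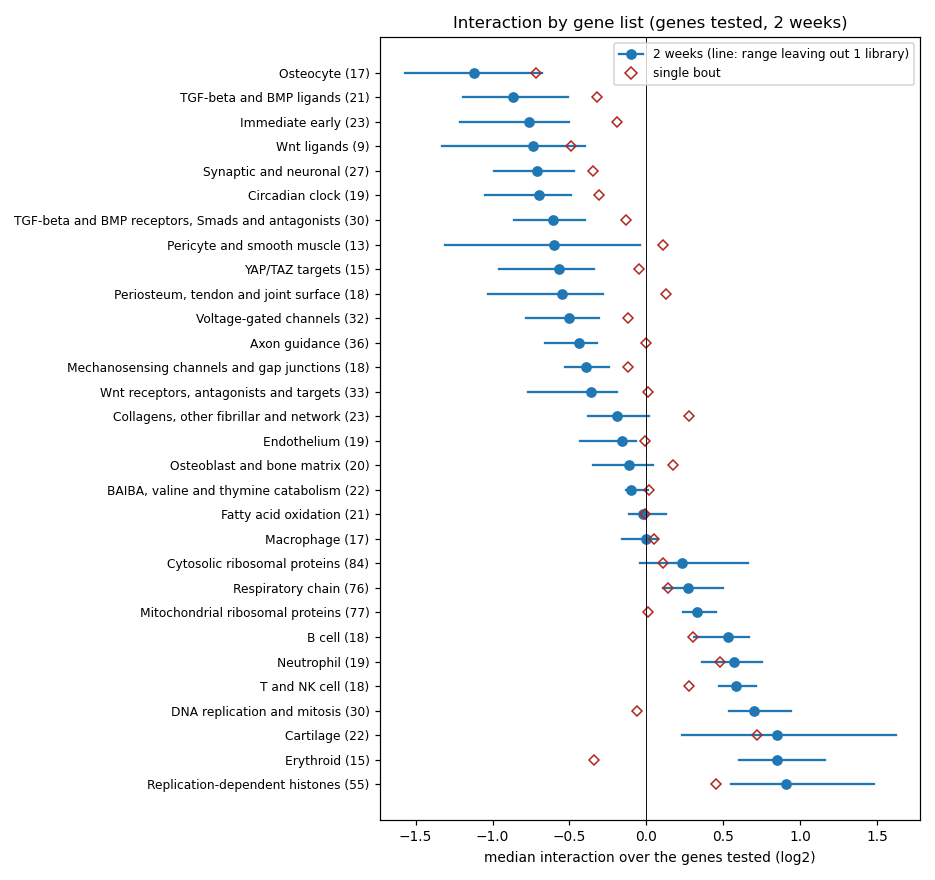
Median interaction (log2, horizontal axis) over the genes tested in each of 30 lists after 2 weeks (circles, with a line for the range on leaving out each library in turn) and after a single bout (diamonds), with the number of genes tested in parentheses. The osteocyte median is -1.12 at 2 weeks and -0.72 after a single bout, while the erythroid medians are 0.85 and -0.34.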

How the data were processed

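RNA from tibial cortical bone was sequenced as poly(A) libraries. The authors aligned reads to mm10 with STAR 2.5.2b and deposited raw counts per RefSeq gene, made with featureCounts (Subread 1.5.1, reverse-stranded, uniquely mapped reads). Genes of low expression had been removed before deposit. The deposited tables also hold log2 expression values and the fold changes, p-values and false discovery rates of the authors' comparisons, which were not used.

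All 12 libraries of 4 groups were fitted together with edgeR 4.0.16 in R 4.3.3 (quasi-likelihood F test, TMM normalisation, CPM over 0.5 in at least 4 libraries, Benjamini-Hochberg adjustment over all genes tested). This filter left 15576 of 15962 genes. The SE is the log2 value divided by the square root of F. CPM are TMM-scaled. The single-bout libraries were fitted in the same way, and the difference between experiments was fitted on all 23 libraries. The p-values of single genes are unadjusted values of the edgeR test across all genes unless named otherwise.

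Pools pair the limbs, as the sample titles name the mice. Deviations from group means correlated at 0.303 and 0.156 for vehicle pools and at 0.563, 0.44 and 0.263 for L-BAIBA pools. Fits with the pool as a fixed block (edgeR) or random block (limma 3.58.1, consensus correlation 0.441) were alternatives, beside DESeq2 1.42.0, the likelihood ratio test, other scaling, no filter and leaving out each library. In the fixed-block fit the unpaired vehicle libraries do not inform the loading effect.

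Genes named in the text are the 10 smallest p in each direction with an absolute log2 value over 1 and a mean of at least 1 CPM, leaving out unnamed models, up to 4 members with the smallest p under 0.05 in each list, and reference bone genes and genes the study names. The members, lists and tests were chosen with earlier results of these data known. Some results that met this rule are not reported here.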

Additional observations from a re-analysis of the deposited data

How the results depend on the processing

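The adjusted count of 0 genes held in every setting run for the 2-week, single-bout and difference fits. The count of 410 genes at 2 weeks was 811 with the pool as a random block and ranged from 165 to 1336 on leaving out each library, and it was 944 without both libraries of the first L-BAIBA pool, a setting chosen after seeing the data. The single-bout count of 204 was 316 by the likelihood ratio test, 869 with the pool as a fixed block and 531 as a random block, and 90 to 374 on leaving out each single-bout library. The count of 78 for the difference was 141 with the fixed and 221 with the random block, and 48 to 452 on leaving out each 2-week library. The cause of these shifts was not tested. The 410 genes kept the sign of their value in at least 384 cases under each setting. They were chosen on the full data and each setting reuses most of the same libraries, so this is largely fixed in advance. Without vehicle loaded replicate 2, 38.8% of the 410 were still called. Of 1775 values of 89 named genes under alternatives, 0 changed sign past the threshold, 1528 stayed on their side of it, 217 lost it and 30 gained it. With library totals in place of TMM the median of all genes was -0.06 against -0.01. Depth limits the weakly expressed genes, whose standard error was 1.18 below 1 CPM.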
